A study of Mus musculus with 26 samples.

Results

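Transcript levels of 8 antimicrobial genes were followed in mouse intestinal epithelium, from the proximal part of the small intestine, after genes of BMP signalling, or the transcription factor gene Tbx3, had been deleted. The genes were taken from a list of symbols, and they are the C-type lectins Reg3b, Reg3g, Reg3a and Reg1, the LY6/PLAUR-domain proteins Lypd8 and Lypd8l, the scavenger receptor Dmbt1 and the lipocalin Lcn2. All 8 had a row in 3 of the 4 expression tables, and 7 had one in the SMAD4 table, where no row is named Lypd8l. The tables held 15653 to 18155 genes, of which 9794 to 12202 passed the filter on low values and were tested. Of the 8 genes, 7 passed in the SMAD1/5 day 6 table, 8 in the day 30 SMAD table, 7 in the SMAD4 table and 7 in the TBX3 table. Lcn2 was the gene below the filter at day 6 after SMAD1/5 deletion and in the TBX3 table.

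Deletion used a tamoxifen-inducible Cre under the Villin promoter, which is active in the intestinal epithelium, so other tissues kept the genes. Controls were littermates matched for sex, either without Cre and given tamoxifen, or with Cre and given the oil vehicle, so active Cre and the deletion always go together. In the SMAD1/5 table, taken 6 days after the first injection, 3 libraries of Smad1 and Smad5 double mutants (iDKO) were compared with 3 control libraries, all given tamoxifen. The day 30 SMAD table held 2 iDKO libraries, 3 libraries of Smad1, Smad4 and Smad5 triple mutants (iTKO) and 5 controls, of which 2 were of the SMAD1/5 line and given tamoxifen and 3 were of the SMAD1/4/5 line and given oil. The SMAD4 table held 2 SMAD4 iKO libraries and 2 oil controls at day 6. The TBX3 table held 3 TBX3 iKO libraries and 3 oil controls at day 30. Where controls had oil, the effect of tamoxifen cannot be told apart from that of the deletion. The labels do not say how many animals gave each library, and p-values measure the spread between these libraries only.

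BMP signals rise from the base to the tip of the villus and reach the nucleus through SMAD1 and SMAD5, which act together with SMAD4. Antimicrobial proteins such as REG3B, REG3G and LYPD8 are made mainly by enterocytes of the lower villus, are released towards the lumen, and keep bacteria away from the epithelial surface. Many of them are known to be induced by microbial signals and by the cytokine IL-22 acting through STAT3.

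The libraries were epithelial by their markers. Epcam ranged from 746 to 2318 FPKM (fragment counts scaled for transcript length and library size) over the 26 libraries, Vil1 from 516 to 3037, and the fibroblast gene Col1a1 from 0 to 0.725. Whole epithelium was sequenced, so villus position was not measured, and in such bulk samples fewer cells of a type and less RNA per cell cannot be told apart. Smad4 averaged 38.0 FPKM in iTKO libraries against 147 in the day 30 controls, and 6.15 in SMAD4 iKO libraries against 23.9. Tbx3 averaged 15.8 in TBX3 iKO libraries against 51.8, and it was also low in the SMAD mutants. It averaged 7.06 in iDKO libraries at day 6 against 37.8 in controls. At day 30 Tbx3 measured 19.6 and 15.9 in iDKO and 11.2 to 18.9 in iTKO libraries, against 47.9 to 70.7 in controls. In the SMAD4 table it measured 13.4 and 14.7 in iKO libraries against 44.1 and 47.3 in controls. Smad1 and Smad5 levels could not check the iDKO label, since transcripts of a deleted allele can still be counted. Smad5 averaged 11.4 FPKM in iDKO libraries against 5.95 in controls at day 6. At day 30 it measured 26.9 and 31.8 in iDKO and 30.5 to 32.1 in iTKO libraries, against 14.4 to 16.9 in controls. The cause of these higher Smad5 values was not tested. Approximate depths, read from the spacing of the FPKM values, were, in megafragments per library, 21.0 to 30.5 in the SMAD1/5 day 6 table and 13.1 to 18.1 in the day 30 SMAD table. The depths of the SMAD4 and TBX3 tables are unknown.

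Lypd8 was higher than in every control of its own table in 13 of 13 mutant libraries, Lypd8l in 11 of 11, and Dmbt1 in 12 of 13. The C-type lectins were less uniform. Reg3b lay above every control in 10 of 13 mutant libraries, Reg3g in 9, Reg3a in 5 and Reg1 in 3, and Reg1 lay below every control in 7. These counts pool all mutant groups over the tables, and the iDKO and iTKO libraries of day 30 share their controls. The share of all genes was not computed for these counts of single libraries, so they are descriptions. The next paragraph gives that share, by comparison, for a stricter count, in which all mutants of a group lie beyond all controls. Differences were tested with limma on log2(FPKM + 0.5), and called where the Benjamini-Hochberg adjusted p, taken over every gene tested, was below 0.05. After SMAD1/5 deletion for 6 days, 3 of 7 genes were called, all higher, where 23.8% of all genes tested were called (15.5% higher). At day 30 in iDKO libraries, 4 of 8 were called, all higher, against 18.7% of all genes (9.43% higher). In iTKO libraries 6 of 8 were called, all higher, against 18.1% (9.13% higher). In SMAD4 iKO libraries 3 of 7 were called, 1 higher and 2 lower, against 3.42% of all genes (1.28% higher, 2.14% lower). In TBX3 iKO libraries 2 of 7 were called, both higher, against 3.42% (1.34% higher). The median log2 difference over the genes of the list that were tested was 0.76, 1.08, 1.79, 0.60 and 1.71 in these comparisons, in that order, and over all genes tested it was 0.18, 0.01, 0.01, 0.03 and -0.06. The list was chosen with earlier results of these data known, so its counts and medians beside those of all genes are descriptions and not a test.

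Counted by overlap, all mutant libraries lay above all controls for 3 of the 7 genes tested in iDKO at day 6 (35.8% of all genes tested did so), for 4 of 8 in iDKO at day 30 (17.9%), for 7 of 8 in iTKO (13.3%), for 4 of 7 in SMAD4 iKO (29.1%) and for 4 of 7 in TBX3 iKO libraries (8.23%). All mutants lay below all controls for Reg3a and Reg1 in SMAD4 iKO libraries, 2 of 7 genes, where 23.8% of all genes did. Between the mutants of day 30, iTKO libraries all lay above iDKO libraries for Reg3b, Reg3g and Reg1, 3 of 8 genes (12.6% of all genes), and below them for Lcn2, 1 of 8 (14.3%). The count of the list was near the share of all genes in iDKO libraries at day 6. It was also near that share for genes below controls in SMAD4 iKO libraries, and for iTKO below iDKO libraries at day 30.

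**Figure D1:**
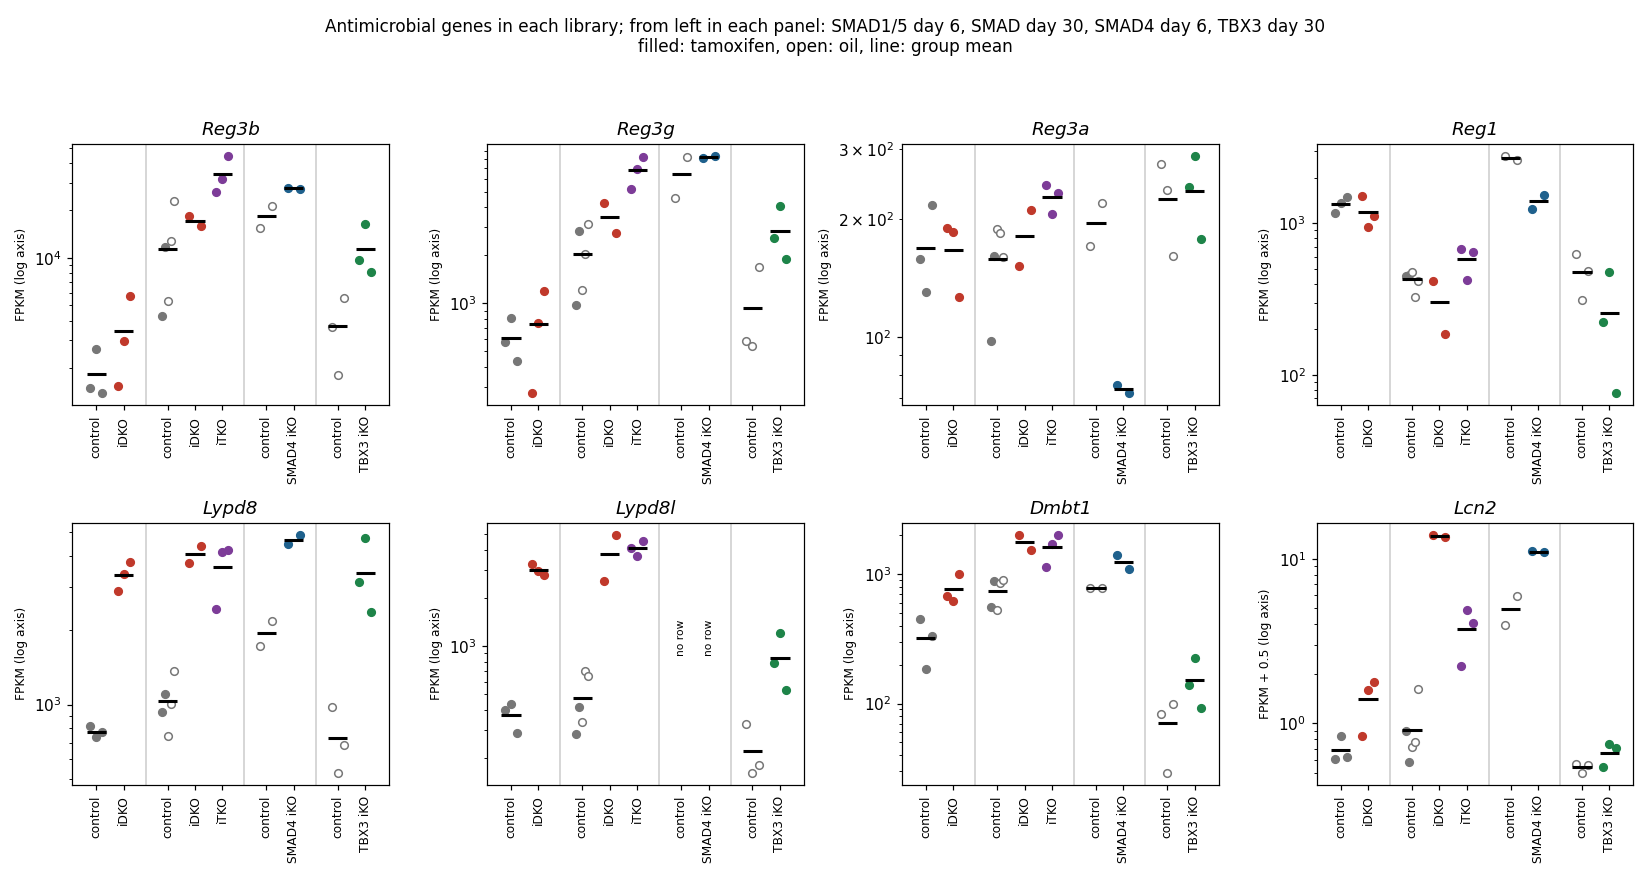
FPKM of each gene (y axis, log scale) in each library (points) by group, with group means as lines, filled points for tamoxifen and open points for oil; Lcn2 is drawn as FPKM + 0.5 because some values are 0. Lypd8 in every mutant library is above all controls of the same table, while Reg3a and Reg1 in SMAD4 iKO libraries are below their controls.

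**Figure D2:**
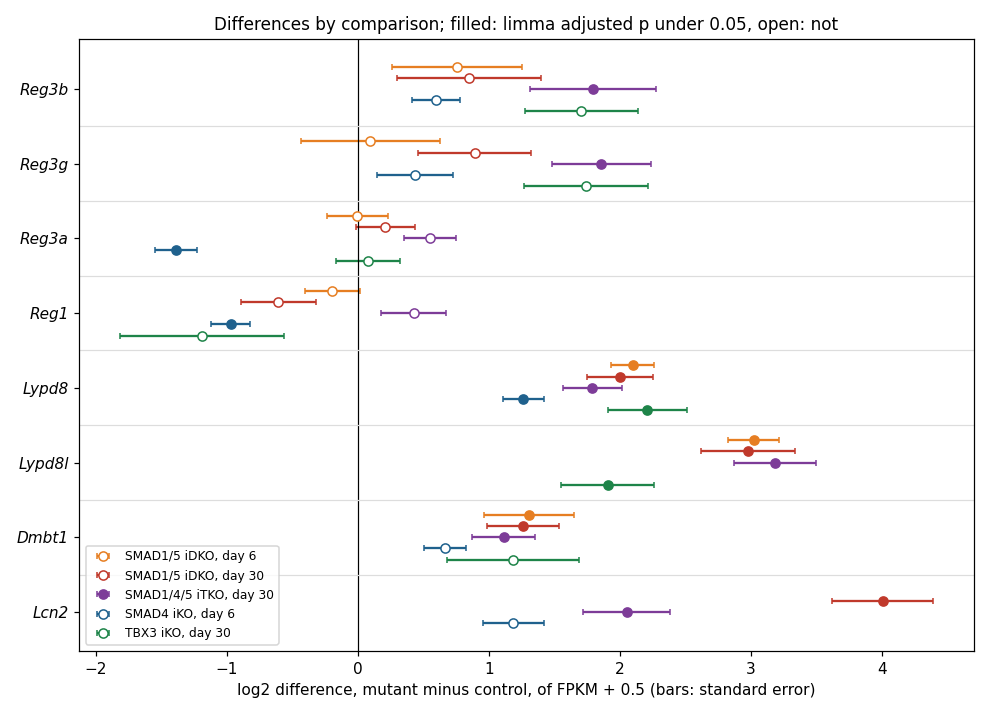
Log2 difference of FPKM + 0.5 between mutants and controls (x axis) for each gene, with standard errors, in the 5 comparisons with controls; filled points passed the limma threshold. Lypd8 is filled in all 5, Reg3b and Reg3g only in the iTKO comparison, and Reg1 and Reg3a only, and below 0, in the SMAD4 comparison.

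Reg3b and Reg3g encode secreted lectins that bind the peptidoglycan or lipids of bacterial surfaces; REG3G kills Gram-positive bacteria, and REG3B also acts on Gram-negative ones. Reg3b was the most abundant transcript, by FPKM, in 14 of 26 libraries, among them all iDKO and iTKO libraries at day 30 and all 4 libraries of the SMAD4 table. It made up 0.420% to 6.34% of the summed FPKM of a library. The 4 REG genes lie close together on mouse chromosome 6 (GRCm38.p6, RefSeq), where Reg3b is at chr6:78370885-78373466 on the plus strand and Reg3g at chr6:78466269-78468874 on the minus strand. The 220 bases from -250 to -31 before their RefSeq starts are shown because the values of these genes ran close to each other over the libraries, 5′ to 3′ on the strand of each gene, with motif matches in capitals. The first sequence is chr6:78370635-78370854 (plus strand) and the second chr6:78468905-78469124 (minus strand).
Reg3b: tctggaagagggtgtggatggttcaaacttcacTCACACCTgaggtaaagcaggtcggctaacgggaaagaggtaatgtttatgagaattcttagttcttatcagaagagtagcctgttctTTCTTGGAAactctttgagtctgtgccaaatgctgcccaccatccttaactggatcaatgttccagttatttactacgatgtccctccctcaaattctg
Reg3g: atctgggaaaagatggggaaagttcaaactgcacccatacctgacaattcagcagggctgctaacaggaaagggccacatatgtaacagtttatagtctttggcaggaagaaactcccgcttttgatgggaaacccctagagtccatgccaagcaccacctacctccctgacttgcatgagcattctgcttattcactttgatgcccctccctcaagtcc
Motifs were searched on both strands in the 250 bases before the start, in windows that the RefSeq table holds for 6 of the 8 genes (7 windows, since Lypd8 has 2 starts). The Reg3b window held the STAT motif TTCNNNGAA as TTCTTGGAA at -129 to -121, a motif found in 7.02% of the 32851 windows of all genes. It also held the T-box motif AGGTGTGA, read on the other strand as TCACACCT at -217 to -210 and found in 1.12% of all windows. Neither motif was found in the windows of Reg3g, Reg3a, Reg1, Lypd8 or Lcn2. The SMAD motifs GTCTAGAC (0.167% of all windows) and GGCGCC (9.586%) and the NF-kB motifs searched were in none of the 7 windows. The C/EBP motif TTGCNNAA (9.564% of all windows) was in those of Reg3a and Lcn2. When aligned, the Reg3b and Reg3g windows were 68.4% identical, and the other pairs of windows 43.0% to 51.7%. These matches describe letters and not binding.

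In the day 30 SMAD table, Reg3b measured 4302, 11729, 5335, 12759 and 22914 FPKM in the 5 controls, 18408 and 15998 in the iDKO libraries, and 25985, 31397 and 44389 in the iTKO libraries. The iTKO libraries all lay above the highest control, and the iDKO libraries lay within the range of the controls, which spanned 5.33-fold among themselves. The iTKO difference was 1.80 ± 0.48 on the log2 scale (SE, 3.47-fold, limma adjusted p = 0.0256). The iDKO difference was 0.85 ± 0.55 (adjusted p = 0.327, 95% interval -0.37 to 2.06) and was not called. The iTKO call was lost against the 3 controls of the same line (1.51, adjusted p = 0.0712), without control 3 (1.59, adjusted p = 0.0516), without iTKO 2 (1.83, adjusted p = 0.0653) or without iTKO 3 (1.58, adjusted p = 0.109), and with no filter on low values (adjusted p = 0.0683). With quantile normalization it was 0.80 (adjusted p = 0.326), a scaling that gives the gene ranked first in a library the same value in every library.

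Reg3g, in the same table, measured 974, 2851, 1211, 2024 and 3138 FPKM in controls, 4226 and 2772 in iDKO, and 5213, 6947 and 8295 in iTKO libraries. The iTKO libraries again lay above every control, and 1 of the 2 iDKO libraries did. The iTKO difference of 1.86 ± 0.37 (SE, 3.63-fold, adjusted p = 0.00678) remained called in every alternative setting run, at 1.63 to 2.16. The iDKO difference was 0.89 ± 0.43 (adjusted p = 0.184). The test of iTKO against iDKO itself gave 0.95 ± 0.60 for Reg3b (adjusted p = 0.612, 95% interval -0.38 to 2.27) and 0.97 ± 0.47 for Reg3g (adjusted p = 0.474, 95% interval -0.07 to 2.00), so a difference between the mutants was not shown for either lectin.

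At day 6, Reg3b measured 1498, 2648 and 1385 FPKM in controls and 1536, 2994 and 5746 in iDKO libraries. Only iDKO 1 was within the control range, and the difference of 0.76 ± 0.50 did not pass the test (adjusted p = 0.280). Reg3g in the same libraries measured 574, 804 and 434 FPKM in controls and 272, 754 and 1198 in iDKO, with 1 mutant below and 1 above all controls (0.10 ± 0.53, adjusted p = 0.899, below 0 at -0.07 when libraries were centred on their medians).

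In the TBX3 table, Reg3b measured 3674, 1812 and 5578 FPKM in controls and 9739, 16332 and 8140.0 in TBX3 iKO libraries. Reg3g there measured 584, 538 and 1687 in controls and 2572, 4085 and 1893 in iKO libraries. All 3 mutants lay above all 3 controls for both genes, a pattern seen in 8.23% of all genes tested. The differences, 1.71 ± 0.43 (adjusted p = 0.0948) for Reg3b and 1.74 ± 0.48 (adjusted p = 0.114) for Reg3g, did not pass the adjusted threshold, except for Reg3b with quantile normalization (1.46, adjusted p = 0.0493; over all settings 0.0493 to 0.328). Their sizes are like those of the iTKO comparison, which was made in a separately normalised table and was not tested against them.

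In the SMAD4 table both lectins were abundant in controls. Reg3b measured 15464 and 21318 FPKM in controls and 27864 and 27171 in SMAD4 iKO libraries (0.60 ± 0.18, adjusted p = 0.162). Reg3g measured 4560.0 and 8287 in controls and 8203 and 8420.1 in iKO libraries, and the groups overlapped (0.44 ± 0.29, adjusted p = 0.460). The self-test on simulated data recovered 10% of genes changed 2-fold with these 4 libraries, so a rise of that size could go uncalled.

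The ratio of Reg3b to Reg3g FPKM was narrower than that of Reg3b to Lypd8, but not constant. It was 2.57 to 7.30 over all 26 libraries, a 2.84-fold range, while the ratio of Reg3b to Lypd8 covered a 31.4-fold range (0.533 to 16.7). In the day 6 SMAD1/5 table the ratio of Reg3b to Reg3g was 2.61 to 3.29 in controls and 3.97 to 5.65 in iDKO libraries, without overlap. No difference in this ratio was tested. Likeness was measured as the root mean square distance between 2 genes over the 26 libraries, each library written as its log2 value minus the control mean of its table, among 9037 genes tested in all tables. By this measure the nearest gene to Reg3b was Reg3g (0.333), then Reg3d (0.556), another REG lectin, and Gp1bb (0.567), and the nearest to Reg3g were Reg3b, Reg3d and Gp1bb. Libraries share their RNA and their controls, so these distances are descriptions. Annotated transcripts of the REG genes shared no window of 50 bases, although shorter or inexact matches were not searched.

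**Figure D3:**
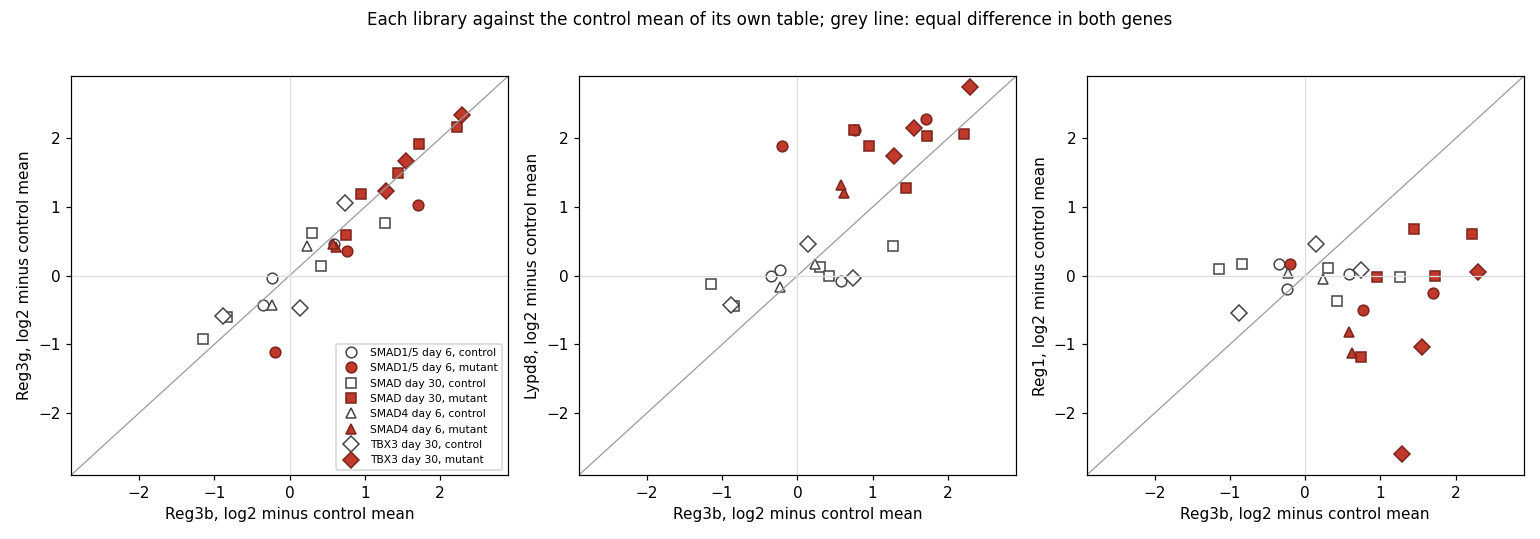
Log2 of FPKM + 0.5 of Reg3g (left), Lypd8 (centre) and Reg1 (right) on the y axes against Reg3b on the x axes, each library (point) relative to the mean of the controls of its own table; open points are controls, red points mutants. Reg3g lies near the line of equal difference in most libraries and below it in the iDKO libraries of day 6. Lypd8 separates mutants from controls, and Reg1 is at or below its control mean in most mutants.

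Reg3a and Reg1 did not follow the other lectins. REG3A belongs to the same family of secreted lectins, and REG1 was first known from regenerating pancreatic islets. In the SMAD4 table, Reg3a measured 171 and 219.8 FPKM in controls and 75.6 and 72.0 in iKO libraries, and Reg1 measured 2802 and 2639.8 in controls and 1247 and 1547 in iKO libraries. Reg3a fell by 1.39 ± 0.16 (adjusted p = 0.0229) and Reg1 fell by 0.97 ± 0.15 (adjusted p = 0.0405), with groups that did not overlap. Leaving out any of the 4 libraries ended both calls: without control 1, control 2, iKO 1 and iKO 2 in turn, Reg3a differed by -1.57, -1.21, -1.42 and -1.35 (adjusted p = 0.0514 to 0.152), and Reg1 by -0.93, -1.01, -0.81 and -1.13 (adjusted p = 0.122 to 0.159). The Reg1 call was also lost with no filter (adjusted p = 0.0910), with no trend in the prior (0.0726) and with quantile normalization (0.128).

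At day 30, Reg1 measured 329 to 479 FPKM in the 5 controls (median 452), 417 and 186 in iDKO, and 679, 422 and 647 in iTKO libraries. iDKO 2 was the lowest library of the table and iTKO 1 and iTKO 3 were the highest, while iDKO 1 and iTKO 2 lay within the controls. Against controls neither difference was called (-0.61 ± 0.29, adjusted p = 0.174 for iDKO; 0.43 ± 0.25, adjusted p = 0.277 for iTKO). Without iDKO 1, the iDKO value was -1.19 (adjusted p = 0.0236, over all settings 0.0236 to 0.964). Between the mutants Reg1 was 1.03 ± 0.31 higher in iTKO (unadjusted p = 0.00719, adjusted p = 0.204). Reg3a in this table ranged from 97.8 to 188 FPKM in controls (median 161) and measured 152 and 210.2 in iDKO libraries and 243, 206 and 232 in iTKO libraries. All 3 iTKO libraries lay above the controls, and the difference of 0.55 ± 0.20 missed the threshold (adjusted p = 0.0813).

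Neither gene was called in the other tables. Reg1 measured 1164, 1364 and 1499 FPKM in day 6 controls and 1507, 945 and 1118 in iDKO libraries (-0.19 ± 0.21, adjusted p = 0.513), and Reg3a differed by -0.00 ± 0.23 there (adjusted p = 0.992, 95% interval -0.56 to 0.55). In TBX3 iKO libraries Reg1 measured 223, 476 and 75.5 against 628, 314 and 483 in controls (-1.19 ± 0.62, adjusted p = 0.404), with iKO 2 inside the control range and the other mutants below it. Reg3a differed by 0.08 ± 0.25 (adjusted p = 0.919). The nearest genes by the same distance were Tmprss15 (0.427), the enteropeptidase gene, for Reg1 and Ces2e (0.341), a carboxylesterase gene, for Reg3a.

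Lypd8 and Lypd8l encode related glycoproteins with LY6/PLAUR domains; LYPD8 is shed by enterocytes and binds flagellated bacteria. Lypd8 lies on chromosome 11 at chr11:58379032-58390541, plus strand (GRCm38.p6, RefSeq). Its 220 bases from -250 to -31 before the first of 2 RefSeq starts are shown because Lypd8 was the gene called in every comparison with controls. They lie at chr11:58378782-58379001 on the plus strand and hold no match to the motifs searched, so no base is in capitals.
Lypd8: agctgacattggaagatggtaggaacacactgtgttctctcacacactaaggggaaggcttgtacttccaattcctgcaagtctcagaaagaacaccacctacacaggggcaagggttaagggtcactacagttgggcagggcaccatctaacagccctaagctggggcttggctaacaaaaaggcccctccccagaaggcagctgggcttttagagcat
This says only that those letters are not in this window.

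At day 6, Lypd8 measured 819, 738 and 773 FPKM in controls and 2885, 3374 and 3782 in iDKO libraries. The controls were close together and all mutants lay far above them (2.10 ± 0.16, 4.29-fold, adjusted p = 5.6e-04). Lypd8l measured 399.9, 433 and 285 in controls and 3258, 2924 and 2784 in iDKO libraries (3.02 ± 0.19, 8.12-fold, adjusted p = 3.1e-04). With libraries centred on their medians, which takes off the shift of 0.18 of all genes in this table, the values were 1.93 for Lypd8 and 2.85 for Lypd8l.

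At day 30, Lypd8 measured 929, 1104, 745, 1009 and 1369.9 FPKM in controls, 3744 and 4385 in iDKO, and 2440.0, 4148 and 4243 in iTKO libraries. Lypd8l measured 281, 417, 336, 698 and 648 in controls, 2531 and 4929 in iDKO, and 4090.2, 3645 and 4498 in iTKO libraries. No mutant overlapped a control for either gene. Lypd8 rose by 2.00 ± 0.25 in iDKO (adjusted p = 4.8e-04) and 1.79 ± 0.22 in iTKO libraries (adjusted p = 5.1e-04), and Lypd8l by 2.98 ± 0.36 (adjusted p = 3.7e-04) and 3.18 ± 0.31 (adjusted p = 1.4e-04). The comparisons share the 5 controls. Between iTKO and iDKO, Lypd8 differed by -0.21 (95% interval -0.83 to 0.40) and Lypd8l by 0.20 (95% interval -0.66 to 1.07). At day 6 and day 30 in iDKO and iTKO libraries, the calls of both genes held in every alternative setting run.

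In SMAD4 iKO libraries, Lypd8 measured 4465 and 4874 FPKM against 1734 and 2176 in controls (1.26 ± 0.15, 2.40-fold, adjusted p = 0.0252). It was the member of the list called higher there, and the call was lost without control 1 (1.10, adjusted p = 0.0684), control 2 (1.43, 0.0555), iKO 1 (1.33, 0.114) or iKO 2 (1.20, 0.175), and with no filter (adjusted p = 0.0645). A row named 2210407C18Rik in this table, which the other tables lack while holding Lypd8l, measured 1202 and 1447 FPKM in controls and 3876 and 4368 in iKO libraries (1.64 ± 0.15, adjusted p = 0.0156). The files do not pair that name with Lypd8l, and the row was not counted with the list.

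In TBX3 iKO libraries, Lypd8 measured 3145, 4743 and 2372 FPKM against 976, 529 and 689 in controls (2.21 ± 0.30, 4.63-fold, adjusted p = 0.0164). Lypd8l measured 786, 1202 and 533 against 326, 162 and 180.0 (1.91 ± 0.36, 3.75-fold, adjusted p = 0.0396). Groups did not overlap. The Lypd8 call was lost without control 2 (2.00, adjusted p = 0.0605), control 3 (2.19, 0.0759) or iKO 1 (2.24, 0.0636) and with no filter (0.0652). The Lypd8l call was lost without control 1 (2.22, adjusted p = 0.0501), control 2 (1.71, 0.138), control 3 (1.79, 0.152), iKO 1 (1.92, 0.118) or iKO 2 (1.61, 0.0591), with no filter (0.104) and with no trend in the prior (0.0514).

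The ratio of Lypd8 to Lypd8l FPKM was 1.44 to 3.31 in controls of the SMAD1/5 and day 30 SMAD tables and 0.597 to 1.48 in iDKO and iTKO libraries. In the TBX3 table it was 2.995 to 3.83 in controls and 3.94 to 4.45 in iKO libraries. Lypd8l passed the level of Lypd8 in some iDKO and iTKO libraries, and stayed below it in every TBX3 iKO library. The tables were normalised separately, and no difference in this ratio was tested. The genes nearest to Lypd8 were Ms4a18 (0.300), Prdx6 (0.320), a peroxiredoxin gene, and Ripk3 (0.354), a kinase of necroptosis; Dmbt1 ranked 21 and Reg3b 61 among the 9036 other genes.

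Dmbt1 encodes a large secreted glycoprotein with scavenger receptor domains that binds and agglutinates bacteria. It measured 453, 185 and 331 FPKM in day 6 controls and 676, 622 and 1002 in iDKO libraries (1.31 ± 0.34, 2.47-fold, adjusted p = 0.0367). Groups did not overlap, but the call did not last when control 3 (1.37, adjusted p = 0.0804), iDKO 1 (1.38, 0.0769), iDKO 2 (1.44, 0.0713) or iDKO 3 (1.10, 0.116) was left out. It was also lost without both number 2 libraries, which had few Paneth cell transcripts (1.09, 0.0570, an alternative added after seeing the data), and with no filter (0.0648).

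At day 30, Dmbt1 measured 560.0, 886, 526, 863 and 905 FPKM in controls, 1997 and 1531 in iDKO, and 1136, 1706 and 2015 in iTKO libraries. Every mutant lay above every control, and Dmbt1 rose by 1.27 ± 0.27 in iDKO (adjusted p = 0.00950) and by 1.11 ± 0.24 in iTKO libraries (adjusted p = 0.00944). The iDKO call was lost without iDKO 1 (1.07, adjusted p = 0.113), and the iTKO call without iTKO 3 (0.94, 0.0523) or against the 2 tamoxifen-treated controls alone (1.16, 0.0583). In SMAD4 iKO libraries Dmbt1 measured 1420.1 and 1090.0 against 786 and 778 (0.67 ± 0.16, adjusted p = 0.110). In TBX3 iKO libraries, where the gene was low, it measured 138, 227 and 92.3 against 83.8, 29.2 and 99.1 (1.19 ± 0.51, adjusted p = 0.292). Dmbt1 was nearest to Inava (0.339), Elovl7 and Fam83e.

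Lcn2 encodes a lipocalin that binds bacterial siderophores and so withholds iron, and it is made by neutrophils as well as by stressed epithelium. It was the rarest of the 8 transcripts. At day 30 it measured 0.391, 0.0824, 0.218, 0.273 and 1.11 FPKM in controls, 13.4 and 13.1 in iDKO, and 1.74, 4.40 and 3.59 in iTKO libraries. At the approximate depths these correspond to about 6, 1, 3, 4 and 15 fragments in controls, 222 and 189 in iDKO libraries and 23 to 62 in iTKO libraries. No mutant overlapped a control. Lcn2 rose by 4.01 ± 0.38 in iDKO (adjusted p = 9.4e-05) and by 2.05 ± 0.34 in iTKO libraries (adjusted p = 0.00227) on the log2(FPKM + 0.5) scale, which understates changes of so low a gene.

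All 3 iTKO libraries lay below both iDKO libraries for Lcn2. That difference, -1.95 ± 0.42, had an unadjusted p of 7.6e-04 and missed the adjusted threshold (0.0725), passing it with a pseudocount of 1 (-1.81, adjusted p = 0.0282; over all settings 0.0282 to 0.434). By limma, 0 of the 8 genes were called between iTKO and iDKO, with 2 (Lcn2 and Reg1) at an unadjusted p under 0.05, where 0.762% of all genes were called. Between the SMAD1/4/5-line oil controls and the SMAD1/5-line tamoxifen controls of this table, limma called 0 of the 8, with 1 (Reg3a) at an unadjusted p under 0.05, against 0.0168% of all genes.

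Lcn2 measured 0.109, 0.336 and 0.122 FPKM in day 6 controls and 0.333, 1.10 and 1.27 in iDKO libraries, and it was not tested there. Of the mutants, iDKO 2 and iDKO 3 lay above all controls. In the SMAD4 table it measured 3.44 and 5.42 in controls and 10.6 and 10.4 in iKO libraries (1.19 ± 0.23, adjusted p = 0.0720). In the TBX3 table it measured 0.0621, 0 and 0.0603 in controls and 0.0381, 0.243 and 0.204 in iKO libraries, too low to compare.

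Some genes used as markers of other cells also differed in these comparisons, and their part in the results above was not tested. Of 11 neutrophil genes, 1 passed the filter in iDKO at day 6, iDKO at day 30 and iTKO, 2 in SMAD4 iKO and 0 in TBX3 iKO libraries, so most were not tested. Ltf was called higher in iDKO at day 6 (1.41 ± 0.30), iDKO at day 30 (2.43 ± 0.40), iTKO (2.97 ± 0.35) and SMAD4 iKO libraries (1.83 ± 0.27). The other neutrophil gene tested in SMAD4 iKO libraries was not called, and the median log2 difference of the 2 was 0.74. The summed neutrophil genes with a row, at day 30 nearly all Ltf, ranged from 0.645 to 3.05 FPKM in controls, 10.9 to 14.3 in iDKO and 13.6 to 25.3 in iTKO libraries. The 2 mutant groups overlapped. The neutrophil receptor gene Csf3r was at most 0.581 FPKM in any library. Of 15 pancreatic acinar genes, 3 passed the filter at day 30, and limma called 2 higher in iDKO and 0 in iTKO libraries. Of all genes tested, 9.43% and 9.13% were called higher there. The acinar gene Ctrb1 averaged 43.5 FPKM in iDKO libraries at day 30 against 0.117 in controls. At day 6 it measured 0.161, 0.209 and 9.52 in SMAD1/5 controls and 18.9, 7.92 and 19.3 in iDKO libraries, and the groups overlapped.

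Paneth cells, which also make antimicrobial peptides, varied between libraries. Of 15 Paneth cell genes, 12 fell in iDKO and 14 in iTKO libraries at day 30. Of all genes tested, 18.7% and 18.1% were called there in either direction. The summed FPKM of the Paneth cell genes at day 30 was 20348 to 29866 in controls and 5362 to 10988 in mutants. In the day 6 SMAD1/5 table the sum was 77.8 and 121 in control 2 and iDKO 2 and 3199 to 10570 in the other libraries, and in the TBX3 table it was 84.1 to 257 throughout. In the SMAD4 table it was 32673 and 2486 in controls and 12788 and 2783 in iKO libraries.

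Other lists moved as well, the following among them, and their part in these results was not tested. All genes tested were called, in either direction, at 23.8% in iDKO at day 6, 18.7% in iDKO and 18.1% in iTKO at day 30, and 3.42% in SMAD4 iKO libraries. Those called higher were 15.5%, 9.43%, 9.13% and 1.28%, in that order. Of 13 genes of T cells and intraepithelial lymphocytes, 8 fell in iDKO and 11 in iTKO libraries at day 30. Of 11 goblet cell genes tested, 7 fell in iDKO and 6 in iTKO libraries at day 30, where their summed FPKM was 8597 to 10585 in controls and 4412 to 5800.3 in mutants. Of 13 genes of enterocytes of the mid villus, 8 fell in iDKO at day 6, and 8 fell and 1 rose in iDKO and 5 fell and 1 rose in iTKO libraries at day 30. In SMAD4 iKO libraries 3 of them fell and 1 rose. The summed FPKM of these genes at day 30 was 7863 to 9683 in controls, 8402 to 11373 in iDKO and 9953 to 13322 in iTKO libraries. In the SMAD4 table it was 9408.5 to 10653 in controls and 12654 to 12756 in iKO libraries. Of 11 villus tip genes, 3 fell and 1 rose in iDKO at day 6 and at day 30, 7 fell and 1 rose in iTKO, and 5 fell in SMAD4 iKO libraries. Of 12 interferon response genes, 5 rose in iDKO at day 6, 4 in iDKO at day 30, 10 in iTKO and 10 in SMAD4 iKO libraries. Their summed FPKM at day 6 was 89.8 to 159.8 in controls and 183 to 313 in iDKO libraries. At day 30 the sum was 161 to 226 in controls, 790.2 and 285 in the iDKO libraries and 395 to 650.5 in iTKO libraries. In the SMAD4 table that sum was 194 and 236 in controls and 812 and 789.9 in iKO libraries. Of 6 BMP response genes tested, 5 fell in iDKO at day 6 and in SMAD4 iKO, and 6 in iDKO and iTKO at day 30. Genes of ileal position summed to 554 to 594 FPKM in TBX3 iKO libraries against 323 to 332 in controls. In the day 30 SMAD table they summed to 122 to 135 in iDKO and 152 to 168 in iTKO, against 198 to 272. Duodenal genes there summed to 193 to 219 in iDKO and 157 to 204 in iTKO, against 109 to 127 in controls.

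**Figure D4:**
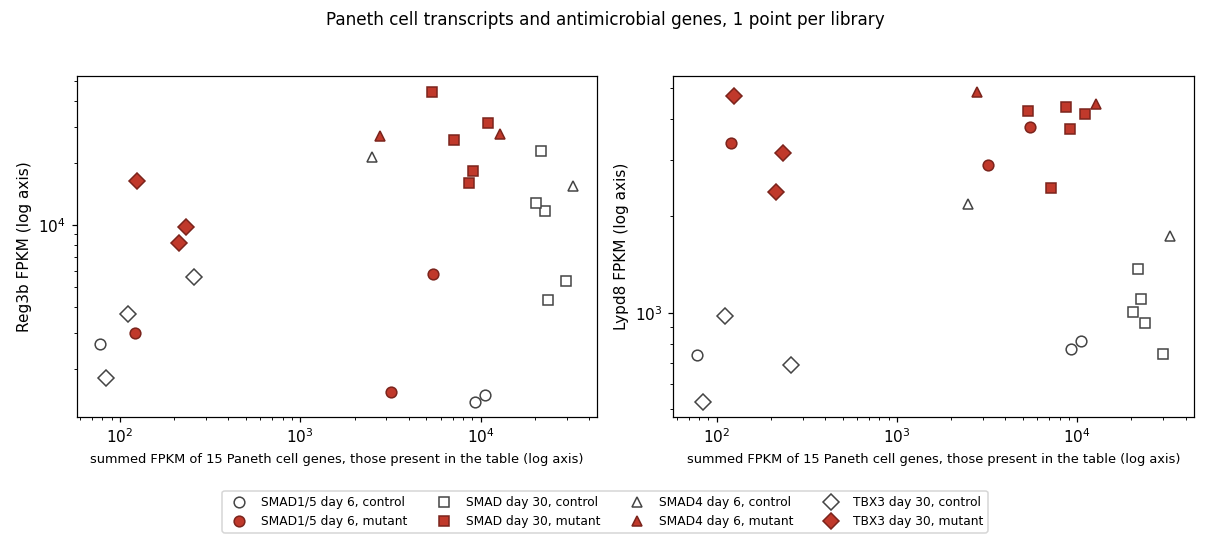
FPKM of Reg3b (left) and Lypd8 (right) on log y axes against the summed FPKM of 15 Paneth cell genes on log x axes, 1 point per library, open for controls and red for mutants. The Paneth sums run from 77.8 to 32673 FPKM, and Lypd8 lies higher in mutants than in controls of the same table.

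Other genes of epithelial defence gave mixed results. In the list of host defence genes, 4 rose and 2 fell of 16 tested in iDKO at day 6, 5 rose and 1 fell of 20 in iDKO at day 30, 5 rose and 1 fell of 20 in iTKO, and 1 rose of 18 in SMAD4 iKO and of 17 in TBX3 iKO libraries, where 23.8%, 18.7%, 18.1%, 3.42% and 3.42% of all genes tested were called. The list medians were 0.11, 0.30, 0.49, -0.10 and 0.29, beside the medians of all genes given above. Pglyrp1, which encodes a peptidoglycan recognition protein, rose by 1.50 ± 0.24, 1.46 ± 0.33, 1.20 ± 0.29 and 1.08 ± 0.15 in the first 4 of these. The inflammasome genes Casp1 and Pycard rose in iDKO at day 6 (0.85 and 0.95), iDKO at day 30 (0.53 and 0.56) and iTKO libraries (0.65 and 0.48), and Nlrp6 rose in iDKO at day 6 (0.61) and in iTKO (0.61). Pigr, the receptor that carries IgA to the lumen, fell by 0.74 ± 0.17 in iDKO at day 6, and Rnase4 fell by 1.58 in iDKO and 1.14 in iTKO libraries at day 30. Ccl28, a chemokine, rose by 2.43 ± 0.28 in TBX3 iKO libraries.

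Of the genes of IL-22 and STAT3 signalling, 2 rose and 2 fell of 13 in iDKO at day 6, 2 of 13 were called at day 30 in iDKO and in iTKO, all lower, 1 rose of 13 in SMAD4 iKO, and 0 of 12 were called in TBX3 iKO libraries by limma, with 0 at an unadjusted p under 0.05, beside the same shares of all genes. The list medians were 0.07, 0.10, 0.11, -0.26 and 0.02. The genes that fell were the kinase genes Pim1 (by 1.63, 1.13 and 0.73) and Pim3 (by 1.16, 1.30 and 0.90), in iDKO at day 6, iDKO at day 30 and iTKO. Fut2, a fucosyltransferase gene known to be induced by IL-22, rose by 1.47 ± 0.23 in SMAD4 iKO libraries. The receptor gene Il22ra1 averaged 32.0 to 51.1 FPKM over the 9 groups.

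Of the genes of Toll-like receptor and NF-kB signalling, 3 rose and 1 fell of 17 in iDKO at day 6, 2 rose and 1 fell of 18 in iDKO at day 30, 3 rose of 18 in iTKO, and 1 rose of 14 in TBX3 iKO. In SMAD4 iKO libraries limma called 0 of 16, with 3 at an unadjusted p under 0.05. All genes tested were called at 23.8%, 18.7%, 18.1%, 3.42% and 3.42% in these comparisons, so the counts of this list lay near those of all genes in iDKO and iTKO libraries. The list medians were 0.23, 0.13, 0.19, 0.09 and 0.01, in that order. Tlr1, a receptor for bacterial lipopeptides, rose by 1.05, 1.15 and 0.99 in iDKO at day 6, iDKO at day 30 and iTKO, and Nod2, a peptidoglycan sensor, by 1.02 ± 0.22 in iTKO. Nfkbia, the NF-kB inhibitor, fell by 1.01 and 1.14 in iDKO at day 6 and day 30 and rose by 0.88 ± 0.12 in TBX3 iKO libraries. Among other REG genes, Reg3d rose by 1.88 ± 0.48 in iTKO libraries (adjusted p = 0.0221) and Reg4 fell by 1.05 ± 0.26 (adjusted p = 0.0197). Together the 8 genes made up 1.09% to 5.68% of the summed FPKM of a control library and 3.16% to 9.18% of that of a mutant library.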

How the data were processed

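The submitters' processing notes list HISAT2 2.2.1, featureCounts 2.0.1 and the builds GRCm39 and mm10, with no roles given. The authors deposited FPKM values in 4 tables, each normalised on its own; how FPKM was computed and the strand setting are not given in the sources used here. Positions and promoters come from the RefSeq table of GRCm38.p6 and are not tied to the authors' build. For repeated symbols the first row was kept; no gene named here was repeated.

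Genes reaching 1 FPKM in a number of libraries equal to the smallest group were tested in limma 3.58.1 (R 4.3.3), with a mean-variance trend on log2(FPKM + 0.5), adjusted by Benjamini and Hochberg, threshold 0.05. Day 30 SMAD libraries (10) shared 1 fit. Values ± are standard errors of the log2 difference. All 8 genes are named; of other lists, up to 4 called genes of smallest adjusted p, plus receptor and marker genes as context and the targeted genes. The members, lists and rules were chosen with earlier results of these data known. Tested on simulated data, the fit recovered 67%, 89%, 88%, 10% and 81% of genes changed 2-fold in iDKO day 6, iDKO day 30, iTKO, SMAD4 iKO and TBX3 iKO. False calls numbered 19, 14, 13, 5 and 9, in that order, with 100 genes changed 2-fold and 100 changed 4-fold. Residuals of equal replicate numbers correlated at 0.143, 0.583 and 0.221 in the day 6 SMAD1/5 table, which was read as pairing there and not elsewhere. They correlated at 0.283 for both numbers in the SMAD4 table, and at 0.253 and -0.013 in iDKO at day 30. With 2 libraries in a group these values decide little, and pairing in those tables is open. In the other comparisons they were negative. Reported values are from the fit without a replicate block, which is an alternative. Alternatives are given in the closing section. Python 3.11.15, pandas 2.3.3 and matplotlib 3.10.9 were used for motifs, ratios and figures.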

Additional observations from a re-analysis of the deposited data

How the results depend on the processing

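Alternatives were pseudocounts of 0.1 and 1, no filter and a stricter one (FPKM of at least 5), median centring, quantile normalization, no trend, a robust prior, the replicate block, other control sets or fits at day 30, and each library left out. Of the values of the listed genes under these, 787 kept their side of the threshold, 45 lost a call, 4 gained one and 0 reversed a called direction. Between iTKO and iDKO, 1 gene instead of 0 was called with a pseudocount of 1. In SMAD4 iKO, 1 instead of 3 was called with no filter, and 0 to 0 with each library left out, a fit with fewer samples. In TBX3 iKO, 0 instead of 2 were called with no filter and with the replicate block (Lypd8 and Lypd8l lost, adjusted p = 0.0826 and 0.104), 1 with no trend, and 0 to 2 with each library left out. With each library left out, 2 to 3 genes were called in iDKO at day 6, 4 in iDKO at day 30 and 4 to 6 in iTKO. The replicate block changed no call of these genes in iDKO at day 6 (3 called) and left 0 called between iTKO and iDKO, called 3 in iDKO at day 30 (Dmbt1 lost, adjusted p = 0.0579), 6 in iTKO and 4 in SMAD4 iKO (Lcn2 gained, adjusted p = 0.0439). Genes called among all tested under these settings numbered 1092 to 2955 in iDKO at day 6, 746 to 2250 in iDKO at day 30, 865 to 2241 in iTKO, 8 to 314 between iTKO and iDKO, 2 to 834 in SMAD4 iKO and 40 to 346 in TBX3 iKO. Over the settings, adjusted p ran from 0.00746 to 0.326 for Reg3b in iTKO, 0.0250 to 0.116, 0.00604 to 0.113 and 0.00532 to 0.0583 for Dmbt1 in iDKO at day 6, iDKO at day 30 and iTKO, 0.00966 to 0.175, 0.0194 to 0.159 and 0.0120 to 0.152 for Lypd8, Reg1 and Reg3a in SMAD4 iKO, 0.0439 to 0.303 for Lcn2 there, and 0.0107 to 0.0826 and 0.0274 to 0.152 for Lypd8 and Lypd8l in TBX3 iKO. Except for these constructions, the cause was not tested. Depth limits Lcn2, which rests on 15 or fewer fragments in each day 30 control.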
